A study of Mus musculus with 4 samples.

Results

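The expression of 10 genes that steer neuronal migration in the young cerebellum was compared between the anterior and the posterior lobes. They are ASTN1, ASTN2, RELN, DAB1, VLDLR, LRP8, CNTN2, CXCR4, CXCL12 and DCX. The genes were chosen by name, with earlier results of these data known, and every probe carrying one of these symbols was taken. The 10 genes have 37 of the 45281 probes on the array, and 29 of the 37 were detected well enough to be tested. RNA came from Swiss mice at postnatal day (PN) 7, without treatment. Of the 4 arrays, 2 held anterior lobes and 2 held posterior lobes, so n = 2 for each lobe throughout. The labels do not say whether the replicates were separate animals or litters, or how many animals went into a sample, and the p-values therefore measure only the spread between these samples. Whole lobes were homogenized, so fewer cells of a type and less RNA per cell cannot be told apart.

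At this age granule cell precursors divide in the external granule layer, and their daughters migrate inward along the fibers of Bergmann glia. ASTN1 (astrotactin 1) is a neuronal membrane protein that holds the migrating cell to the glial fiber, and ASTN2 regulates how much ASTN1 is at the cell surface. RELN (reelin) is a secreted protein that binds VLDLR and LRP8 (also called ApoER2), which pass the signal to the adaptor DAB1, and this pathway places the Purkinje cells. CXCL12 is a chemokine released by the meninges that keeps precursors bearing CXCR4 near the surface, CNTN2 (TAG-1) is an adhesion molecule on the axons of young granule neurons, and DCX (doublecortin) binds microtubules in migrating neurons.

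The median intensity of the 4 arrays lay between 110.2 and 129.6, and between 46.5% and 47.6% of probes were detected. The 2 anterior arrays differed from each other more than the 2 posterior arrays did, with an SD of the replicate difference over all tested probes of 0.32 and 0.20 on the log2 scale. The bead error of the tested probes of the 10 genes had a median of 3.64% of the intensity. The number of arrays limits the precision, because an exact two-sided permutation test of 2 against 2 arrays cannot go below p = 0.33.

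Of the 29 tested probes, those of CXCR4 and 1 of CXCL12 were higher in the posterior lobe and 2 of DAB1 were lower. These 4 met the criterion, which asks for more than a 1.2-fold change and for an unadjusted limma p under 0.05. Among all 21726 tested probes 3.30% were higher and 5.0% lower by this criterion, 8.29% together, against 6.90% and 6.90% of the 29. None of the 29 passed a Benjamini-Hochberg adjusted p of 0.05 in limma, where 0.106% of all probes did, and their lowest adjusted p was 0.396, with 4 at an unadjusted p under 0.05. The median log2 difference, posterior minus anterior, was -0.07 over the 29 probes and 0.00 over all tested probes. Without normalization 0 of the 29 probes met the criterion, where 6.06% of all tested probes did. With the methods' t-test 1 of the 29 did, where 3.41% of all tested probes did. A fit with 1 array left out has a single array in that lobe, and its spread comes from the other lobe alone. For such fits only differences are given below.

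Of the 29 probes, 10 had a positive difference and 19 a negative one. Posterior values lay above both anterior values for 6 probes (20.7%) and below them for 9 (31.0%), where all tested probes gave 21.1% and 21.5%. The 95% intervals of the differences reached 0.28 to either side at the median. For 5 probes, 1 each of ASTN1, RELN, VLDLR, CNTN2 and DCX, the interval lay wholly inside a 1.2-fold change in both directions.

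**Figure D1:**
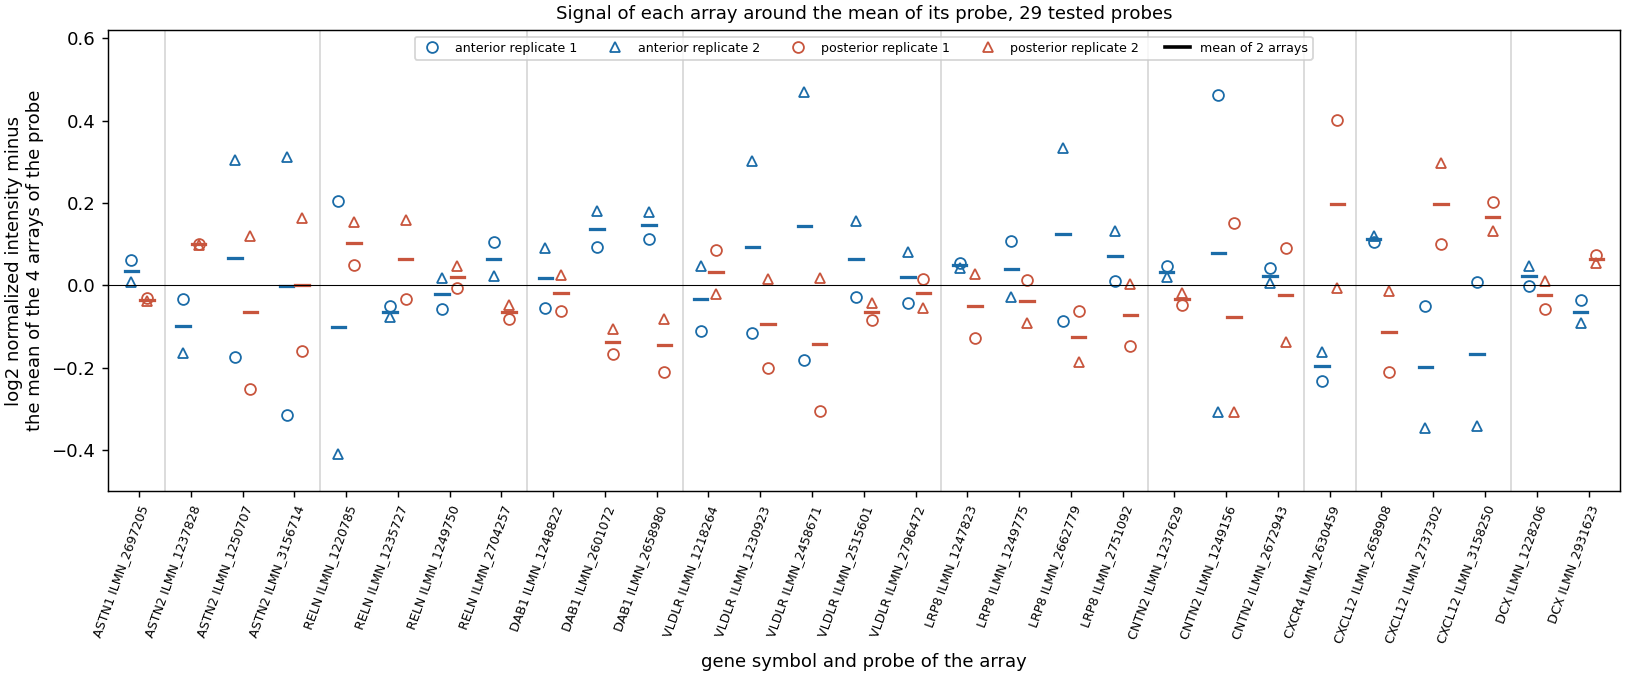
Signal of each array for the 29 tested probes, as the log2 normalized intensity minus the mean of the 4 arrays of that probe (vertical axis), with circles for replicate 1, triangles for replicate 2 and bars for the mean of the 2 arrays of a lobe. Anterior arrays are blue and posterior arrays red, and the colors separate for 15 probes, 6 with posterior above and 9 with posterior below.

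**Figure D2:**
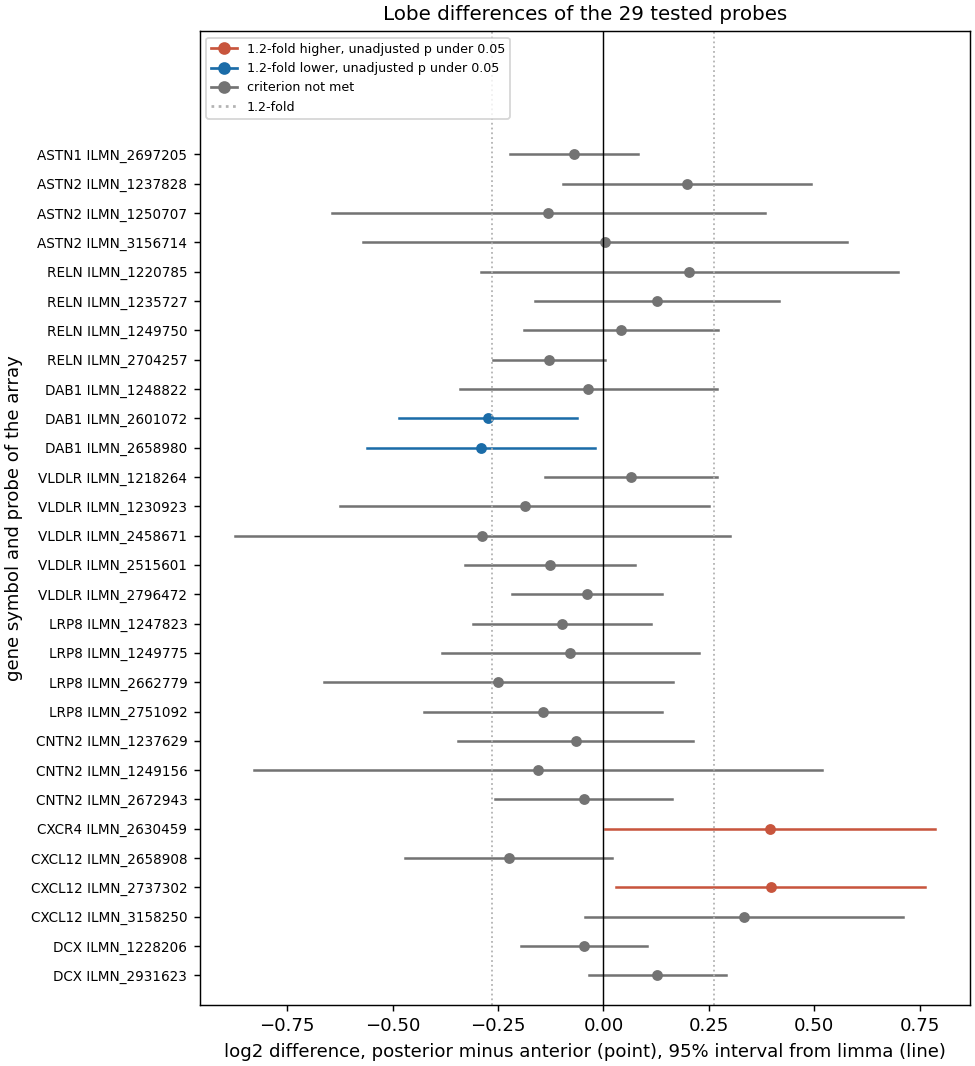
Difference of each tested probe, posterior minus anterior on the log2 scale (points), with the 95% interval from limma (lines) and dotted lines at a 1.2-fold change. The 2 colored points on the right are CXCR4 and a CXCL12 probe, and the 2 on the left are DAB1 probes.

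ASTN1 and ASTN2, the astrotactins, showed no lobe difference past the criterion in any of 4 tested probes. The ASTN1 probe (ILMN_2697205) read 13.04 and 12.99 in the anterior and 12.95 and 12.94 in the posterior arrays, on the log2 scale of normalized intensity used from here on. The posterior arrays lay just below the anterior ones, and the difference of -0.07 ± 0.061 (SE) had a limma adjusted p of 0.73.

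ASTN2 was read by 3 probes that did not move alike. ILMN_1237828 gave 8.67 and 8.54 in the anterior and 8.80 and 8.80 in the posterior arrays, a difference of 0.20 ± 0.12 (SE, limma adjusted p = 0.61) without overlap. The other ASTN2 probes overlapped between the lobes, with differences of -0.13 ± 0.21 for ILMN_1250707 and 0.00 ± 0.23 for ILMN_3156714. In both of them replicate 2 read above replicate 1 in each lobe, by 0.32 to 0.63. That gap between replicates is larger than any lobe difference of ASTN2.

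RELN, the secreted ligand that granule neurons make at this age, had 4 tested probes and none past the criterion. Its brightest probe (ILMN_2704257) read 14.75 and 14.67 in the anterior and 14.56 and 14.60 in the posterior arrays, with a difference of -0.13 ± 0.054 (SE, limma adjusted p = 0.51). Both posterior arrays were below both anterior arrays on this probe. ILMN_1235727 went the other way, with 9.57 and 9.54 against 9.58 and 9.78 and a difference of 0.13 ± 0.12.

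RELN ILMN_1220785 read 10.78 and 10.17 in the anterior and 10.63 and 10.73 in the posterior arrays. The second anterior array stood apart and the lobes overlapped, so the difference of 0.20 ± 0.20 (SE) was no larger than its error. The dim ILMN_1249750, detected on 3 arrays, differed by 0.04 ± 0.094. The RELN probes thus gave no common direction.

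The reelin receptors VLDLR and LRP8 had 9 tested probes, none past the criterion. Their differences ran from -0.29 to 0.06, and 8 of the 9 were negative. The 3 bright VLDLR probes differed by 0.06 ± 0.083 (ILMN_1218264), -0.13 ± 0.082 (ILMN_2515601) and -0.04 ± 0.072 (ILMN_2796472). Of these only ILMN_2515601 separated the lobes, with intensities before normalization of 7763.9 and 7551.2 in the anterior and 6761.9 and 7203.5 in the posterior arrays.

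The largest receptor difference, -0.29 ± 0.24 for VLDLR ILMN_2458671, came with overlapping lobes and a gap of 0.65 between the anterior replicates. The lobes also overlapped on VLDLR ILMN_1230923 (-0.19 ± 0.18). For LRP8, ILMN_1247823 read 11.61 and 11.60 in the anterior and 11.43 and 11.58 in the posterior arrays, a difference of -0.10 ± 0.086 (SE, limma adjusted p = 0.73). The posterior arrays were below the anterior ones here and on ILMN_2751092 (-0.14 ± 0.11), and the lobes overlapped on ILMN_1249775 (-0.08 ± 0.12) and ILMN_2662779 (-0.25 ± 0.17).

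DAB1, the adaptor that both receptors recruit, was lower in the posterior lobe on 2 of its 3 probes. ILMN_2601072 read 11.13 and 11.22 in the anterior and 10.87 and 10.93 in the posterior arrays, or 11.18 ± 0.062 and 10.90 ± 0.043 (SD, n = 2), a fold of 0.827. ILMN_2658980 read 9.81 and 9.87 against 9.48 and 9.61, or 9.84 ± 0.046 and 9.55 ± 0.092 (SD, n = 2), a fold of 0.817. On both probes the 2 posterior arrays were below both anterior arrays, with a gap between the lobes wider than the gap between replicates.

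The limma differences were -0.27 ± 0.086 (SE, unadjusted p = 0.019, adjusted p = 0.396) and -0.29 ± 0.11 (SE, unadjusted p = 0.0388, adjusted p = 0.462). The third DAB1 probe, ILMN_1248822, read 8.45 and 8.60 against 8.45 and 8.53 and overlapped, with a difference of -0.04 ± 0.12. Both calls were lost with arrays left unnormalized and with arrays shifted to a common 75th percentile. In these fits and with single arrays left out the differences stayed between -0.35 and -0.23. The methods' t-test kept only the call of ILMN_2601072. Purkinje cells use DAB1, and none of the 11 tested probes of 5 Purkinje cell marker genes met the criterion. Their median difference was -0.12, with 9 negative and 2 positive. Posterior values lay below both anterior values for 36.4% of them and above for 9.09%, where all tested probes gave 21.5% and 21.1%. The summed level of those markers was 16.268 and 16.321 in the anterior arrays and 16.165 and 16.165 in the posterior arrays, with CALB1, PCP4 and CAR8 lacking a tested probe. Their part in the DAB1 difference was not tested.

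CNTN2, found on the parallel fibers of young granule neurons, did not meet the criterion on any of 3 tested probes. The brightest, ILMN_2672943, read 13.84 and 13.81 in the anterior and 13.89 and 13.66 in the posterior arrays, a difference of -0.05 ± 0.086 (SE, limma adjusted p = 0.88), and the lobes overlapped. ILMN_1237629 differed by -0.07 ± 0.11 without overlap. ILMN_1249156 was detected only on the replicate 1 arrays and differed by -0.16 ± 0.27.

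CXCR4, the receptor that holds precursors at the surface, was higher in the posterior lobe. Its 1 probe (ILMN_2630459) read 9.31 and 9.38 in the anterior and 9.94 and 9.54 in the posterior arrays, or 9.35 ± 0.049 and 9.74 ± 0.29 (SD, n = 2). The lobes did not overlap, but the posterior replicates were 0.41 apart. The fold was 1.31, with a limma difference of 0.39 ± 0.16 (SE, unadjusted p = 0.0486, adjusted p = 0.493).

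Without posterior replicate 1 the CXCR4 difference was 0.19, under a 1.2-fold change, and without posterior replicate 2 it was 0.60. The call was lost without normalization, with cyclic loess and with the methods' t-test. Of the granule cell precursor markers, 5 genes had 10 tested probes and none met the criterion, with a median difference of 0.10. Of these probes 8 had a positive and 2 a negative difference. Posterior values lay above both anterior values for 30% of them and below for 20%, where all tested probes gave 21.1% and 21.5%. The summed level of these markers was 14.59 and 14.46 in the anterior and 14.56 and 14.59 in the posterior arrays, and ATOH1, GLI1 and MYCN had no tested probe. Their part in the CXCR4 difference was not tested.

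CXCL12, the ligand of CXCR4, was read by 3 probes that disagreed in direction. ILMN_2737302 read 9.33 and 9.03 in the anterior and 9.48 and 9.68 in the posterior arrays, or 9.18 ± 0.21 and 9.58 ± 0.14 (SD, n = 2). The posterior arrays were above both anterior arrays, with a fold of 1.32 and a limma difference of 0.40 ± 0.15 (SE, unadjusted p = 0.038, adjusted p = 0.458). ILMN_3158250 was also without overlap, at 8.68 and 8.33 against 8.88 and 8.81, and its difference of 0.33 ± 0.15 (SE) missed the criterion. With the replicate number as a block it met the criterion at the same difference. It gave 0.51 without anterior replicate 1 and 0.16 without anterior replicate 2.

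The brightest CXCL12 probe, ILMN_2658908, ran the other way. It read 11.01 and 11.02 in the anterior and 10.69 and 10.89 in the posterior arrays, so that both posterior arrays were below both anterior arrays, and its difference of -0.22 ± 0.10 (SE, limma adjusted p = 0.53) missed the criterion. Without posterior replicate 1 this difference was -0.13 and without posterior replicate 2 it was -0.32. Leaving out anterior replicate 2 brought the difference of ILMN_2737302 to 0.24, under a 1.2-fold change, and leaving out anterior replicate 1 gave 0.55. Without posterior replicate 1 it was 0.50 and without posterior replicate 2 it was 0.30. The call of ILMN_2737302 was lost without normalization and with the methods' t-test.

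Since the probes of one gene share each array, they were also set against each other within it, a comparison chosen after their values were seen. ILMN_2737302 minus ILMN_2658908 was -1.68 and -1.99 in the anterior and -1.21 and -1.21 in the posterior arrays, a shift of 0.62 with a pooled SD of 0.156. For ILMN_3158250 it was -2.33 and -2.69 against -1.82 and -2.08, a shift of 0.56 with a pooled SD of 0.225. The lobes did not overlap in either contrast, and the exact two-sided permutation p of 0.33 is the smallest that 4 arrays allow. Without single arrays the shifts ranged from 0.38 to 0.78. The contrast restates the opposite directions of the probes and is a description only, and what transcripts each probe reads was not analysed here.

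**Figure D3:**
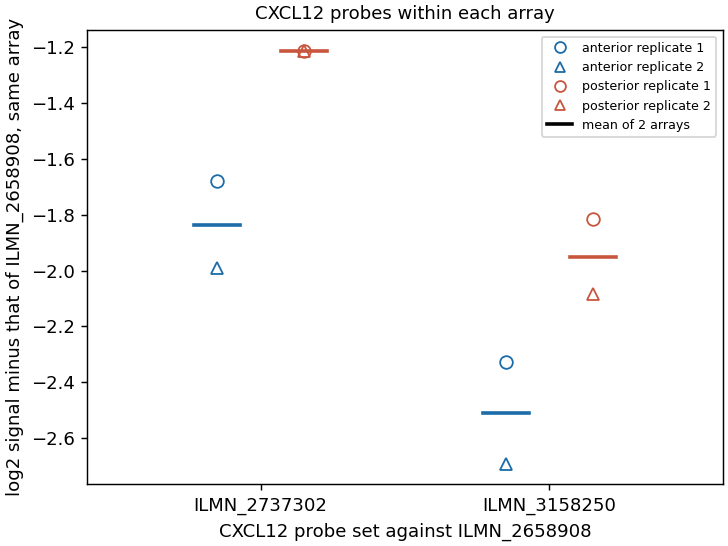
Log2 signal of 2 CXCL12 probes minus that of CXCL12 probe ILMN_2658908 on the same array (vertical axis), for anterior (blue) and posterior (red) arrays, with bars for the mean of 2 arrays. The contrasts are higher on both posterior arrays, by 0.62 for ILMN_2737302 and 0.56 for ILMN_3158250.

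Markers of the meninges, where CXCL12 is made, differed between the dissections. Of 13 tested probes of 9 meningeal fibroblast genes, 9 probes of 6 genes (69.2%) were higher in the posterior lobe by the criterion and none lower. Among all tested probes 3.30% were higher and 5.0% lower. The meningeal probes had a median difference of 0.51. Their summed level was 13.94 and 14.13 in the anterior arrays and 14.54 and 14.76 in the posterior arrays. With the methods' t-test 3 of the 13 probes met the criterion. Without posterior replicate 2 the median was 0.37. CXCL12 itself had no common direction, as its brightest probe was lower and its other tested probes were higher in the posterior lobe. The part of the meningeal markers in the CXCL12 and CXCR4 differences was not tested.

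DCX, the doublecortin of migrating neurons, was bright in both lobes. ILMN_1228206 read 13.42 and 13.47 in the anterior and 13.36 and 13.43 in the posterior arrays, a difference of -0.05 ± 0.061 (SE, limma adjusted p = 0.83) with overlap. ILMN_2931623 read 12.45 and 12.39 against 12.55 and 12.54, a difference of 0.13 ± 0.066 without overlap that missed the criterion. The 8 probes of the 10 genes that were not tested, 2 of CXCL12 and 1 each of ASTN1, RELN, VLDLR, LRP8, CNTN2 and DCX, had intensities of 57.4 to 105.4 and detection p-values of 0.155 to 0.974.

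Around these 10 genes, 4 lists of further pathway genes held 142 tested probes of 79 genes. By the criterion 11 probes were higher and 10 lower in the posterior lobe, 14.8% together beside the 8.29% of all tested probes, and none passed the adjusted p. Their median difference was -0.04. Because the lists were chosen with earlier results of these data known, their share of calls is a description only. With the methods' t-test 10 of the 142 probes met the criterion, where 3.41% of all tested probes did.

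The reelin signalling list contributed 5 higher and 5 lower probes of 41 (12.2% each), with a median of -0.05. Of all tested probes 3.30% were higher and 5.0% lower. LIMK1, a kinase that acts on actin through cofilin, had the lowest adjusted p of these genes. It read 11.55 and 11.52 in the anterior and 12.08 and 12.12 in the posterior arrays, a difference of 0.57 ± 0.072 (SE, limma adjusted p = 0.078). PIK3R1, the regulatory subunit of the kinase that DAB1 engages, differed by 0.38 and 0.37 on 2 probes and by -0.18 on another that missed the criterion. Among the 5 lower probes were 1 of DAB2IP (-0.49), a DAB1 partner, 2 of the microtubule protein MAPT (-0.43 and -0.29) and 1 of the protease ADAMTS4 (-0.38), which can cleave reelin. The other DAB2IP probes, at -0.15, -0.16 and -0.15, and the other MAPT probes, at -0.22, -0.11 and 0.16, missed the criterion. MAPT ILMN_3034121 (-0.43) was dim and not detected on every array. Its intensities before normalization were 186.1 and 181.4 in the anterior and 143.9 and 133.7 in the posterior arrays. Both PIK3R1 calls and those of DAB2IP and MAPT ILMN_3034121 were lost with the methods' t-test, and that of PIK3R1 ILMN_3114641 also without normalization. Without anterior replicate 2 both PIK3R1 probes (0.20 and 0.22) and DAB2IP (-0.25) fell under a 1.2-fold change. Leaving out single arrays gave -0.54 to -0.32 for MAPT ILMN_3034121 and -0.47 to -0.30 for ADAMTS4. A background correction took MAPT ILMN_3034121 to -0.72. LIMK1 met the criterion under every alternative with all 4 arrays, and leaving out single arrays gave 0.54 to 0.58.

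In the list for glial guided migration and adhesion, 1 of 52 tested probes was higher (1.92%) and 4 were lower (7.69%) by the criterion. These shares lie near the 3.30% and 5.0% of all tested probes, and the median was -0.06. The higher probe was for the netrin receptor DCC (0.74 ± 0.20, SE), whose other probe gave 0.19. Another 2 probes, of the adhesion molecule NCAM1, were lower with log2 differences of -0.64 and -0.44, and the remaining NCAM1 probe gave 0.36 and missed the criterion. The calcium channel subunit CACNA1B differed by -0.41, or -0.68 with a background correction. This probe was dim, with intensities before normalization of 202.5 and 183 in the anterior and 143.9 and 149.7 in the posterior arrays. The other CACNA1B probe gave -0.14 and missed the criterion. The DCC call was lost with the methods' t-test, and its difference was 0.45 without anterior replicate 2. Both NCAM1 calls were also lost with the methods' t-test. Leaving out single arrays gave -0.55 to -0.33 for NCAM1 ILMN_3102825 (-0.44) and -0.46 to -0.36 for the called CACNA1B probe.

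Of 17 chemokine signalling probes 2 were higher by the criterion (11.8%, beside 3.30% of all tested probes) and none lower, with a median of -0.02. Both belonged to CXCL14, another chemokine of the CXC family, with differences of 0.56 and 0.46 (limma adjusted p = 0.18 and 0.19), and both met the criterion under every alternative run.

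The doublecortin and microtubule list had 3 higher (9.38%) and 1 lower (3.12%) of 32, with a median of 0.03. Of all tested probes 3.30% were higher and 5.0% lower. DCTN1, a dynactin subunit, differed by 2.39 ± 0.39 (SE, limma adjusted p = 0.14), but its probe was near background in the anterior lobe, with intensities of 147.4 and 71.5 against 732.5 and 383.5, and anterior replicate 2 was not detected. DCLK3, a doublecortin-like kinase, differed by 0.37 and STMN1 (stathmin), which destabilizes microtubules, by 0.33. PPP1R9B, an actin-binding scaffold of spines, differed by -0.34. The DCLK3 and STMN1 calls were lost without normalization and that of DCTN1 with the methods' t-test. Leaving out single arrays gave 0.30 to 0.44 for DCLK3, 0.28 to 0.37 for STMN1 and -0.41 to -0.27 for PPP1R9B.

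**Figure D4:**
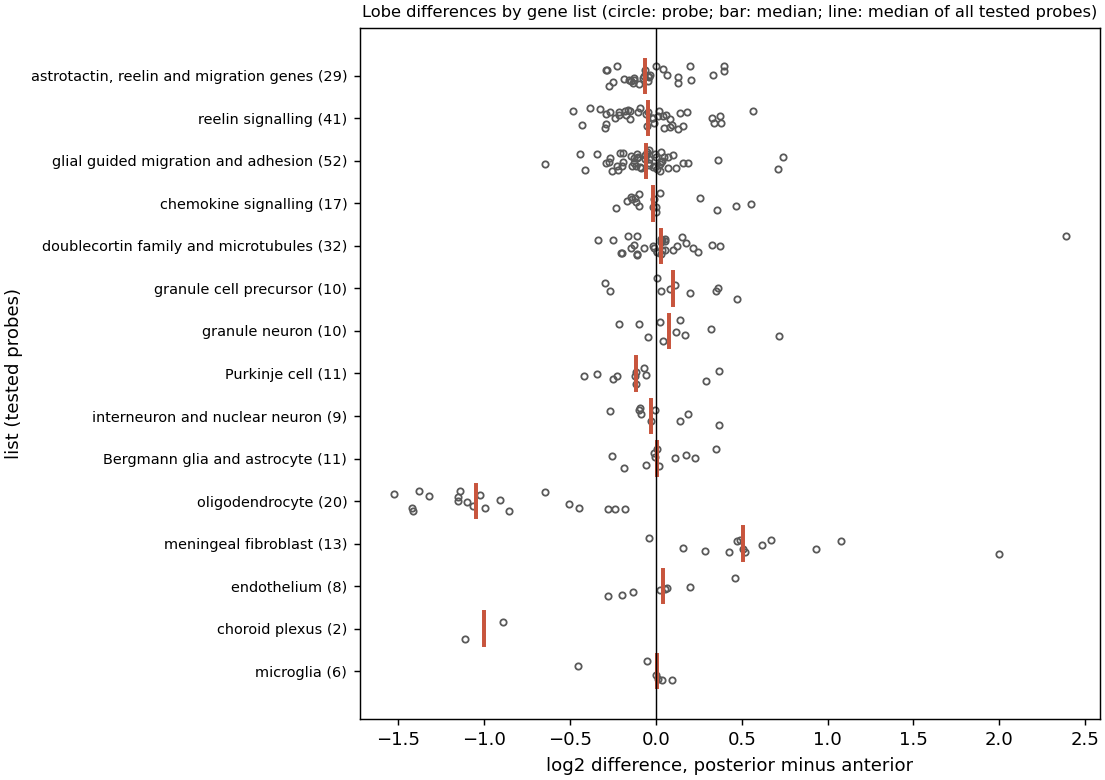
Differences of every tested probe by gene list, posterior minus anterior on the log2 scale (horizontal axis), with red bars for the median of a list, a vertical line for the median of all tested probes and the number of tested probes in parentheses. The 4 pathway lists center near 0. Oligodendrocyte probes lie to the left with a median of -1.05 and meningeal fibroblast probes to the right with a median of 0.51. Choroid plexus, with only 2 tested probes, has a median of -1.

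Markers of other cell types in the dissected lobes were read in the same fit. Of 20 tested oligodendrocyte probes, 18 were lower in the posterior lobe by the criterion (90%, beside 5.0% of all tested probes). The oligodendrocyte markers had a summed level of 16.40 and 16.37 in the anterior and 15.86 and 15.77 in the posterior arrays. Of 10 granule neuron probes 2 were higher (20%, beside 3.30% of all tested probes), with a median of 0.08, and none with the methods' t-test. The granule neuron markers had a summed level of 14.86 and 14.74 in the anterior and 14.86 and 14.80 in the posterior arrays. None of the 11 Bergmann glia and astrocyte probes met the criterion, and their median was 0.00. Choroid plexus had 2 tested probes, 1 of them lower by the criterion (50%, beside 5.0% of all tested probes), with a median of -1. Its summed level was 9.98 and 13.44 in the anterior and 9.23 and 11.99 in the posterior arrays. Replicates of a lobe thus lay further apart than the lobes. The part of these cell types in the differences above was not tested.

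The probes whose pattern over the 4 arrays was most like that of DAB1 ILMN_2601072, by the root mean square distance between profiles centered on their own means, belonged to UBQLN1 (0.00665), ARF3 (0.00806) and CHD3 (0.00925). For CXCL12 ILMN_2737302 they were C78339 (0.0162), HMGB2 (0.0281) and SCL0002368.1_75 (0.0325). With 4 arrays such closeness is a description only.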

How the data were processed

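RNA of anterior and posterior lobes was read on Illumina MouseWG-6 arrays of version v2.0. The authors deposited the mean bead intensity, its bead SD and the number of beads per probe without normalization, and a deposited detection score equal to 1 minus the detection p-value. Another 16 columns (minima, maxima, array numbers, empty SDs) were not used.

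Intensities were quantile normalized, set to at least 1 and taken to log2 (R 4.3.3). Quantile normalization was a choice made here, as the methods name none. Probes with a detection p under 0.05 on 2 or more of all 4 arrays entered limma 3.58.1 (lmFit, eBayes with an intensity trend), two-sided, posterior minus anterior, with Benjamini-Hochberg adjustment over all tested probes. The study's criterion, a fold change over 1.2 with unadjusted p under 0.05, was read from the same fit. The fit was tested on simulated data. Samples were grouped by the lobe in the labels. Each probe was kept on its own under the array's symbol. A summed level is the log2 of the summed normalized intensities of 1 probe per marker gene.

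Named genes are all probes of the 10 genes and, of each pathway list, up to 3 probes per direction with the largest differences past the criterion. The genes and lists were chosen with earlier results of these data known. Alternatives were other normalizations, a background correction, other detection filters, a fit without trend, the methods' t-test, a replicate block and leaving out each array. The number of arrays limits the precision. No sequences are shown because the sources used here pair none with the probes.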

Additional observations from a re-analysis of the deposited data

How the results depend on the processing

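The 4 calls among the 29 probes moved with the processing. Without normalization 0 were past the criterion, beside 6.06% of all tested probes. With a common 75th percentile 2 were, beside 8.41% of all tested probes. With the methods' t-test 1 was, beside 3.41%. The adjusted p, passed by none of the 29, was passed by 0 to 5 when single arrays were left out. A fit with 1 array left out has a single array in that lobe. Its spread comes from the other lobe alone, so its counts of calls cannot be set against those of the main fit. Over all tested probes, 1802 met the criterion, against 741 with the methods' t-test and 766 to 4677 without single arrays. The adjusted p was passed by 23, against 123 without normalization, 73 without the detection filter, 13 without the intensity trend, 0 with the methods' t-test (1763 at an unadjusted p under 0.05), and 0 to 2538 without single arrays. The 21 further migration probes became 10 with the methods' t-test and 10 to 46 without single arrays. With the 75th percentile 53.5% of all calls were higher in the posterior lobe, against 39.7%.

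The labels do not say whether equal replicate numbers pair the lobes of the same animal, and the main fit used no pairing. With the replicate number as a block, 2818 of all probes met the criterion and 588 passed the adjusted p, and 5 and 0 of the 29. Replicate differences of the lobes correlated over probes (r = 0.458).

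Some probes that missed the criterion changed direction, among them VLDLR ILMN_2458671 with a difference of -0.29. Without normalization ASTN2 ILMN_3156714 gave -0.022. Leaving out single arrays gave -0.37 to 0.11 for ASTN2 ILMN_1250707, -0.31 to 0.32 for ASTN2 ILMN_3156714, -0.10 to 0.51 for RELN ILMN_1220785, -0.11 to 0.037 for DAB1 ILMN_1248822, -0.015 to 0.14 for VLDLR ILMN_1218264, -0.40 to 0.024 for ILMN_1230923, -0.61 to 0.038 for ILMN_2458671, -0.10 to 0.023 for ILMN_2796472, -0.54 to 0.070 for CNTN2 ILMN_1249156 and -0.16 to 0.064 for CNTN2 ILMN_2672943. The causes were not tested.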
